A study of Mus musculus with 12 samples.

Results

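The nuclear genes of oxidative phosphorylation were measured by RNA-seq in Rd76-9 tumors, which form from a mouse embryonal rhabdomyosarcoma cell line. Members were chosen by symbol: the Nduf genes of complex I, Sdha to Sdhd, the Uqcr genes, Cox4 to Cox8 and the Atp5 genes, each with a protein-coding RefSeq transcript. The muscle isoforms Cox6a2, Cox7a1 and Cox8b were left out by the rule, as were 4 pseudogenes or symbols with no such transcript, 7 of 90 matching symbols in all. The remaining 83 members, of 38894 genes, comprised 39 of complex I, 4 of complex II, 8 of complex III, 15 of complex IV and 17 of complex V. Ndufa4 is counted here with complex I by its symbol, although it is now regarded as a subunit of complex IV.

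Wild-type C57/Bl6J mice carried Rd76-9 cells injected into the flank, and 12 tumors were taken at day 16, 3 per group. The groups received vehicle (m1 to m3), 0.25 mg/kg vincristine (VCR, m4 to m6), 8 µg per injection of RCM1 in folic acid nanoparticles (RCM1-NPFA, m7 to m9), or both (VCR+RCM1-NPFA, m10 to m12). VCR binds tubulin and blocks mitosis, and RCM1 is a small molecule inhibitor of the transcription factor FOXM1. The treatment label of the vehicle tumors also names RCM1, whereas their titles call them controls and the study's methods give empty nanoparticles and saline, so they were taken as controls by title. All tumors came from 1 transplanted cell line, and each library holds RNA of tumor and host cells together.

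Oxidative phosphorylation passes electrons from NADH and succinate through complexes I to IV of the inner mitochondrial membrane to oxygen. The protons pumped on the way drive ATP synthase, complex V. Most subunits are encoded in the nucleus, translated in the cytosol and imported, and a smaller group of core subunits is encoded by mitochondrial DNA, whose transcripts were not analysed here. Muscle fibers are rich in these complexes and use isoforms of several complex IV subunits that other tissues express little.

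The 12 libraries held between 29342195 and 32108055 estimated counts. Summed over 22 genes of mature muscle fibers, vehicle tumors had 313 to 456 CPM (counts scaled to the library size), VCR tumors 2295 to 14920, RCM1-NPFA tumors 420, 566 and 22410, and VCR+RCM1-NPFA tumors 846 to 5781. Tumors m5 (VCR) and m9 (RCM1-NPFA) thus stood apart from the rest of their groups. Myod1 and Myog, which define the rhabdomyosarcoma lineage, were at 0 to 0.0617 CPM in the vehicle tumors, so the labelled tumor type was not visible in these 2 markers there. A list of 10 myogenic genes that holds both summed to 264 to 410 CPM in the vehicle tumors, and its member Des had 7.76 to 11.4 CPM. Keratinocyte genes summed to 5.2 to 7.19 CPM in the 12 tumors.

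The members were abundant transcripts. Summed over the 83 genes, they made up 2.40 to 2.93% of the summed TPM (a level per transcript length, scaled to the same total in each library). Complex V had the highest sum, 9014 ± 176 TPM in vehicle tumors (SD, n = 3), followed by complex I with 7023 ± 7.99, complex IV with 5496 ± 62.0, complex III with 2362 ± 65.6 and complex II with 596 ± 29.9. The median member of complex V had 488 TPM over the 12 tumors, against 356 in complex IV, 279 in complex III, 168 in complex I and 157 in complex II. Complex V was thus highest by both measures. Complex I, with 39 genes, was second by sum but below complexes III and IV by its median member.

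Atp5b, the catalytic beta subunit of ATP synthase, was the highest member with a mean of 1269 TPM. It was followed by Atp5g2, which encodes the proton-carrying c subunit, with 1053 TPM. The complex IV subunits Cox4i1, Cox8a and Cox6b1 came next, with 922, 895 and 802 TPM. The lowest members were isoforms with known tissue-restricted expression. Ndufa4l2, a paralog of Ndufa4, averaged 7.59 TPM, and Cox4i2, the alternative isoform of Cox4i1, 3.58 TPM. Cox6b2, the testis isoform of Cox6b1, averaged 0.947 TPM and Cox7b2 was between 0 and 0.132 TPM. Cox8c had 0 counts in all 12 tumors, which allows up to 0.0934 to 0.102 CPM per tumor (3 counts, counting error only). These last 3 genes did not pass the filter on low counts, and the other 80 members were tested.

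VCR was the treatment after which members were called. Of the 80 tested members, 25 were higher in VCR-treated than in vehicle-treated tumors and 0 were lower (edgeR quasi-likelihood test, Benjamini-Hochberg adjusted p under 0.1 over all 17599 tested genes). Among all tested genes, 2.79% were called higher. The median log2 fold change of the 80 members was 0.30, against 0.00 over all tested genes, and 79 of the 80 were above 0. The changes were small: apart from Ndufa4l2, no tested member exceeded 0.53 on the log2 scale. In bulk tumor RNA, more cells of a type and more RNA per cell cannot be told apart.

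Summed over the members, VCR tumors had 27260, 29337 and 27070 TPM, and vehicle tumors had 24661, 24602 and 24211. The groups did not overlap, and the mean of VCR tumors was 1.14 times that of vehicle tumors. The same ratio was 1.16 for complex I, 1.11 for complex II, 1.16 for complex III, 1.15 for complex IV and 1.11 for complex V. No complex stood out by this measure.

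**Figure D1:**
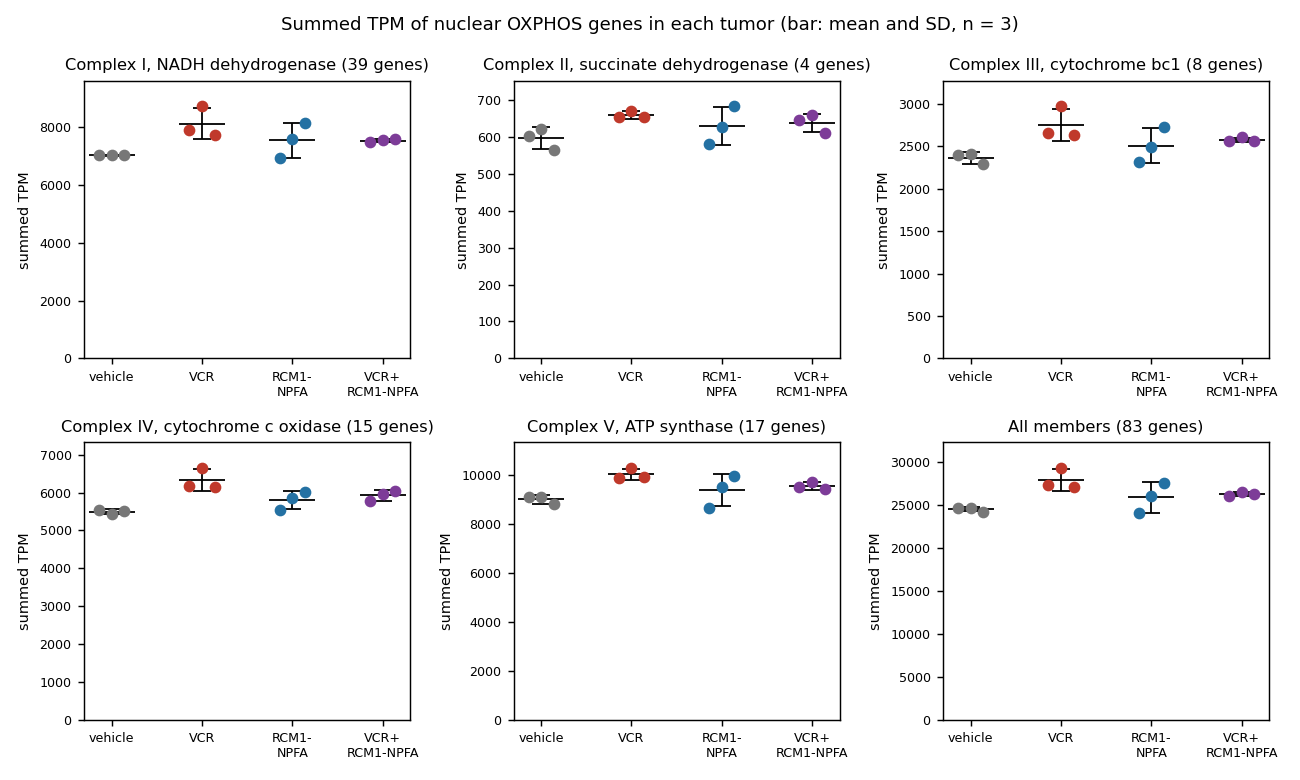
Summed TPM of the members of each respiratory complex in each of the 12 tumors, by treatment (linear axes from 0; points are tumors, bars the mean and SD of 3 tumors). VCR tumors lie above vehicle tumors in every panel, and tumor m5 has the highest total, 29337 TPM.

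The calls for VCR sat close to the threshold. The adjusted p of the 25 called members ran from 0.0694 to 0.0992, and 19 further members were between 0.1 and 0.15. All 25 had every VCR tumor above every vehicle tumor in CPM, as did 53 of the 80 members, against 13.5% of all tested genes. With the summed fiber genes as a covariate, or without m5 and m9, 0 of the 80 members were called, with medians of 0.19 and 0.21, and leaving out single tumors gave 0 to 45 calls. Over all genes, 975 were called in either direction with all tumors, 1 with the covariate and 253 without m5 and m9. The member counts were 0 without m1, m2, m4, m5 or m11, 3 without m12 (243 of all genes), 8 without m10 (522) and 45 without m6 (1998). Without m2, m4 or m5, 0 of all genes were called, without m11 1 and without m1 281. DESeq2 called 41 members higher, including the same 25, beside 6.87% of all genes with an adjusted p, and limma-voom called 13, with 680 of all genes in either direction. At an unadjusted p under 0.05 in edgeR, 63 members were higher and 0 lower, beside 11.7% and 10.4% of all tested genes.

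**Figure D2:**
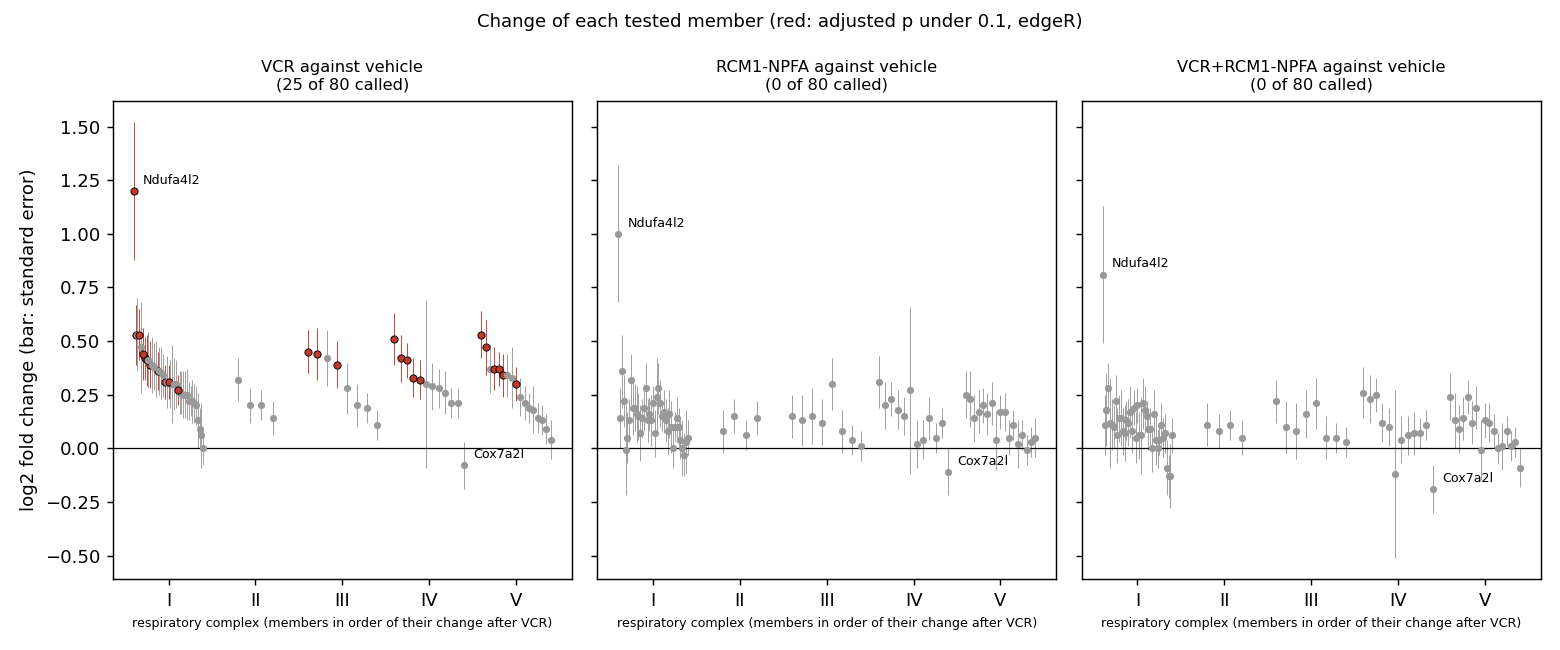
log2 fold change and standard error of each of the 80 tested members by complex, for each treatment against vehicle (red, adjusted p under 0.1 by edgeR). After VCR, 25 members are called and nearly all points are above 0, and after the other treatments 0 are called.

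In complex I, the NADH dehydrogenase, 11 of 39 members were called higher and the median log2 fold change was 0.31. The largest change was in Ndufa4l2, a gene known to be induced by hypoxia. It had 4.66, 2.79 and 5.70 TPM in vehicle tumors, 9.86, 10.7 and 8.08 after VCR, 10.6, 5.53 and 9.83 after RCM1-NPFA, and 6.08, 8.24 and 8.96 after VCR+RCM1-NPFA. In TPM, the VCR and combination tumors were all above the vehicle tumors, while m8 of RCM1-NPFA lay within the vehicle range. In CPM the combination overlapped vehicle, with 2.95 in m10 against 3.06 in vehicle tumor m3. After VCR, Ndufa4l2 was 2.30-fold higher (log2 1.20, SE 0.32, adjusted p = 0.0871, edgeR). It was also among the members with the fewest counts, 41 to 182 per tumor.

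The call of Ndufa4l2 after VCR was lost with the fiber covariate (log2 1.04, adjusted p = 0.508, edgeR) and without m5 and m9 (log2 1.06, adjusted p = 0.265, edgeR), and over all alternatives its adjusted p ran from 0.00699 to 0.508 (edgeR, DESeq2 or limma). Hypoxia genes summed to 2867 to 4785 CPM in vehicle and 2785 to 2937 CPM in VCR tumors. Of 11 tested hypoxia genes, 0 were called higher after VCR and 2 lower, the angiogenic factor Vegfa (log2 -0.52, SE 0.13) and Pdk1 (log2 -0.80, SE 0.21), an inhibitor of pyruvate entry into the TCA cycle. Among all tested genes, 2.75% were called lower.

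Ndufb7, an accessory subunit facing the intermembrane space, had 297, 276 and 280 TPM in vehicle tumors, 359, 431 and 350 after VCR, 284, 326 and 345 after RCM1-NPFA, and 323, 353 and 362 after the combination. All VCR and combination tumors were above the vehicle tumors. It was 1.45-fold higher after VCR (log2 0.53, SE 0.12, adjusted p = 0.0748, edgeR). Ndufa11, a membrane subunit, had 33.5, 29.4 and 36.0 TPM in vehicle tumors and 45.4, 51.1 and 39.7 after VCR, with log2 0.53 and SE 0.14. Both were highest in m5 and lowest of the VCR group in m6.

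Among the core subunits of complex I, some were called and some were not. Ndufs7, an iron-sulfur protein beside the ubiquinone site, was called higher (log2 0.44, SE 0.12), as was Ndufv2, an iron-sulfur protein of the NADH-binding module (log2 0.27, SE 0.07). Ndufv1, the flavin-binding subunit of the same module, had log2 0.34 (SE 0.10) with an adjusted p of 0.104 in edgeR. Ndufs1, the largest subunit, had 65.7, 75.3 and 61.7 TPM in vehicle tumors and 61.0, 64.2 and 68.6 after VCR. These overlap, and its log2 fold change was 0.00 (SE 0.08).

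Ndufs8 (log2 0.26, SE 0.10), Ndufa9 (0.20, SE 0.09) and Ndufb8 (0.38, SE 0.11) were not called. The accessory subunits Ndufb10 (log2 0.41), Ndufa1 (0.42) and Ndufa8 (0.39) were called higher, and so were Ndufb6, Ndufb3 and Ndufa10. Ndufb4 and Ndufb4c, near-identical copies between which shared reads are divided, had log2 0.30 and 0.47, and neither was called.

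In complex II, succinate dehydrogenase, 0 of 4 members were called by edgeR, although 3 had an unadjusted p under 0.05. DESeq2 called 1, Sdhb (adjusted p = 0.0404), and limma-voom 0. Sdhb, the iron-sulfur subunit, was nearest, with 167, 154 and 133 TPM in vehicle tumors and 178, 189 and 167 after VCR (log2 0.32, SE 0.10, adjusted p = 0.103, edgeR). The VCR tumor m6 was only just above the highest vehicle tumor. The flavoprotein Sdha, which oxidizes succinate, had log2 0.14 (SE 0.08), and the membrane anchors Sdhc and Sdhd both had log2 0.20. All 4 members had every VCR tumor above every vehicle tumor in CPM, beside 13.5% of all tested genes. In TPM, Sdha and Sdhd overlapped: vehicle tumor m2 had 146.5 TPM of Sdha against 146.1 in m6, and 155.7 TPM of Sdhd against 151.7 in m5.

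In complex III, which passes electrons from ubiquinol to cytochrome c, 3 of 8 members were called higher. The small subunits Uqcr10 (log2 0.45, SE 0.10) and Uqcrq (log2 0.44, SE 0.12) were called together with the core protein Uqcrc1 (log2 0.39, SE 0.11). Uqcr10 had 511, 496 and 484 TPM in vehicle tumors, 600, 673 and 594 after VCR, 476, 530 and 581 after RCM1-NPFA, and 572, 584 and 576 after the combination. VCR and combination tumors were all above vehicle, and RCM1-NPFA tumors were on both sides of it. Uqcrc2, the partner of Uqcrc1 in the core, had log2 0.11 (SE 0.07), and the Rieske iron-sulfur protein Uqcrfs1 log2 0.19 (SE 0.07), and neither was called.

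In complex IV, cytochrome c oxidase, 5 of 12 tested members were called higher. Cox5a, which sits on the matrix side, had 298, 330 and 273 TPM in vehicle tumors, 381, 437 and 383 after VCR, 312, 347 and 426 after RCM1-NPFA, and 369, 377 and 342 after the combination. VCR and combination tumors did not overlap with vehicle tumors, and m7 lay within the vehicle range. Cox5a was 1.43-fold higher after VCR (log2 0.51, SE 0.12, adjusted p = 0.0748, edgeR). Cox5b (log2 0.42), Cox6a1 (0.41), Cox6c (0.33) and Cox6b1 (0.32) were also called.

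Cox6a1 had the smallest standard error of these, 0.08, with 497, 490 and 486 TPM in vehicle tumors and 580, 635 and 592 after VCR. Cox4i1 (log2 0.26, SE 0.10), Cox7c (0.28, SE 0.09), Cox7a2 (0.21, SE 0.07) and Cox8a (0.29, SE 0.11) were not called. Cox7a2l, which helps join complexes III and IV into supercomplexes, was the only tested member with a fold change below 0. It had 250.7, 224 and 265 TPM in vehicle tumors and 233, 210 and 223 after VCR, with overlap of the groups (log2 -0.08, SE 0.11), and the value was 0.07 with the fiber covariate.

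In complex V, ATP synthase, 6 of 17 members were called higher. Atp5k, the membrane subunit e, had 467, 438 and 375 TPM in vehicle tumors, 527, 594 and 530 after VCR, 438, 468 and 526 after RCM1-NPFA, and 499, 493 and 498 after the combination. The VCR and combination tumors were all above the vehicle tumors. Atp5k was 1.44-fold higher after VCR (log2 0.53, SE 0.11, adjusted p = 0.0694, edgeR).

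Atp5e, the epsilon subunit of the central stalk, had 388, 362 and 389 TPM in vehicle tumors and 458, 541 and 436 after VCR (log2 0.47, SE 0.13). Atp5j2, Atp5l and Atp5mpl, all small membrane subunits, were called higher too, with log2 0.37, 0.30 and 0.34. Several larger subunits of the head and stalk had lower values. Atp5a1 (alpha) had log2 0.21, Atp5b (beta) 0.13, Atp5c1 (gamma) 0.09 and Atp5pb (subunit b) 0.04, and none of these 4 was called. Atp5d (delta, log2 0.33, SE 0.14) and Atp5o (the oligomycin sensitivity protein, log2 0.34, SE 0.10) were not called either. Nor were Atp5md, another small membrane subunit (log2 0.19, SE 0.07), Atp5j (0.24) and Atp5h (0.14), so not all small subunits were called.

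Atp5g1, Atp5g2 and Atp5g3 encode the same mature c subunit. Atp5g3 had 542, 613 and 570 TPM in vehicle tumors and 712, 699 and 694 after VCR and was called higher (log2 0.37, SE 0.10, adjusted p = 0.0871, edgeR). Atp5g1 had the same log2 fold change of 0.37 with an adjusted p of 0.101 in edgeR, and Atp5g2 log2 0.18 (SE 0.11). Atp5g2 supplied 55.1, 49.9 and 55.0% of the summed TPM of the 3 genes in vehicle tumors and 49.6 to 50.1% in VCR tumors. Vehicle tumor m2 was within the VCR range, so the shares overlapped.

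Promoter sequences were available in RefSeq (GRCm38.p6) for 67 of the 83 members, with 72 start sites, each covering 250 bases before and 50 after the start. They were searched on both strands for the letters bound by factors known to act on nuclear genes of the respiratory chain. GCGCATGC, the core of the palindrome bound by NRF1, was in 10 of 72 member promoters and in 2.71% of all 32851 promoters. AAGATGGCG, bound by YY1, was in 7 and in 1.4% of all. CCGGAAGT, bound by GABP and other ETS factors, was in 5 and in 3.89% of all. TCAAGGTCA, bound by estrogen-related receptors, was in 2 and in 0.423% of all.

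Of the 10 genes with the NRF1 letters, 6 were among those called higher after VCR, and 21 of the called members had a promoter sequence. The same count was 2 of 7 genes for the YY1 letters, 0 of 5 for those of GABP and 1 of 2 for those of estrogen-related receptors. Stretches of 120 bases are shown for 4 of the called members described above, so that the letters and their surroundings can be read, in lower case with the match in capitals, 5′ to 3′ along the gene. In Atp5k and Ndufa11 the match began 50 and 60 bases before the start, in Cox6a1 162 bases before it, and in each of these 3 genes overlapping matches on both strands are capitalized together. In Atp5g3 the capitals mark the estrogen-related receptor letters on the opposite strand, 52 bases before the start. A match of letters says nothing about binding in these tumors.
Atp5k (chr5:108434400-108434519, minus strand): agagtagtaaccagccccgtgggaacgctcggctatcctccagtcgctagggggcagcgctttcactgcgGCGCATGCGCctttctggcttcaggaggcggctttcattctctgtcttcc
Ndufa11 (chr17:56717642-56717761, plus strand): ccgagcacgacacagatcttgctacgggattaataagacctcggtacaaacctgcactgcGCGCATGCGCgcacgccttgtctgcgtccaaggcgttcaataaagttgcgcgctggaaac
Cox6a1 (chr5:115349039-115349158, minus strand): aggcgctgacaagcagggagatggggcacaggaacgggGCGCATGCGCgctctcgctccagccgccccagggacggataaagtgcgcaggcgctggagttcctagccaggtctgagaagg
Atp5g3 (chr2:73911327-73911446, minus strand): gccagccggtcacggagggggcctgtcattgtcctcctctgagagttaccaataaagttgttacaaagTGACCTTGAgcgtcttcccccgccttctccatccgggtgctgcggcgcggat

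After RCM1-NPFA, 0 of the 80 members were called by edgeR, limma-voom or DESeq2, and 0.0% of all tested genes were called by edgeR. For limma-voom and DESeq2 the share of all genes called is not given here, so their 0 is not read as a result about the members. At an unadjusted p under 0.05, 10 members were higher and 0 lower in edgeR, beside 5.34% of all tested genes higher. The median log2 fold change was 0.14, and 75 of 80 were above 0. Summed over members, the tumors had 24034, 26047 and 27543 TPM: m7 was below every vehicle tumor, and m8 and m9 were above. The median was 0.10 without m5 and m9 (64 above 0) and 0.07 with the fiber covariate (59 above 0). With splines of GC content and length, an alternative chosen after seeing the data, it was 0.03 (50 of 78 above 0), against -0.04 over all genes. Only 9 of the 80 members had all 3 tumors above all vehicle tumors, beside 5.56% of all tested genes. The largest values were in Ndufa4l2 (log2 1.00, SE 0.32), Ndufa5 (0.36, SE 0.17) and Ndufb10 (0.32, SE 0.12), and the lowest in Cox7a2l (-0.11), Ndufb5 (-0.03) and Atp5b (-0.01).

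After VCR+RCM1-NPFA, again 0 of the 80 members were called by edgeR, limma-voom or DESeq2, and 0.0% of all genes by edgeR. The share of all genes called by limma-voom or DESeq2 is not given for this comparison either. At an unadjusted p under 0.05, 7 members were higher and 0 lower in edgeR, beside 3.81% of all tested genes higher. The median log2 fold change was 0.10, with 71 of 80 above 0. It was 0.01 with the fiber covariate (47 above 0). With splines of GC content and length it was -0.01 (33 of 78 above 0), against -0.04 over all genes. The summed values of 25991, 26512 and 26226 TPM were close together and above all 3 vehicle tumors, and 19 members had all 3 tumors above all vehicle tumors, beside 7.1% of all tested genes. The highest values were in Ndufa4l2 (log2 0.81, SE 0.32), Ndufb7 (0.28, SE 0.12) and Cox5a (0.26, SE 0.12). The lowest were in Cox7a2l (-0.19, SE 0.11), Ndufb5 (-0.13, SE 0.10) and Ndufv3 (-0.13, SE 0.15). The 3 comparisons with vehicle share the same 3 vehicle tumors and are therefore not independent of each other. The same holds for the comparisons that follow. The combination against VCR uses the same VCR tumors again, and the interaction uses all 4 groups, so neither is independent of the result after VCR.

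The combination was also set against each drug alone, to ask what the second drug added. Here too, the shares of all genes called by limma-voom and DESeq2 are not given. Against VCR, 0 of the 80 members were called by edgeR, limma-voom or DESeq2, with 0.0% of all genes called by edgeR and 29 members lower at an unadjusted p under 0.05, beside 2.68% of all tested genes. The median was -0.20, 79 of 80 members were below 0, and 24 had every combination tumor below every VCR tumor, beside 6.88% of all tested genes. Without m5 and m9 the median was -0.11, and 6 of 80 were above 0. With the splines it was -0.07, with 17 of 78 above 0, against 0.01 over all genes. The summed TPM of the combination tumors, at most 26512, was below the lowest VCR tumor, 27070. Against RCM1-NPFA, 0 members were called by any of the 3 tools, 0 had an unadjusted p under 0.05 in edgeR, beside 1.35% of all genes higher and 0.716% lower, 0.0% of all genes were called, and the median was -0.03 with 26 of 80 above 0. Without m5 and m9 this median turned to 0.01, with 45 above 0, and without m9 alone to 0.01, with 42 above 0.

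The interaction asks whether the combination differs from the sum of both single changes on the log2 scale. Its median over the members was -0.33, with 79 of 80 below 0 and 46 members lower at an unadjusted p under 0.05, beside 7.27% of all tested genes. In edgeR, 0 members and 0.0% of all genes passed the adjusted threshold, with a smallest adjusted p of 0.293. The median was -0.22 with the fiber covariate and -0.20 without m5 and m9. With splines of GC content and length it was -0.08, with 17 of 78 members above 0, against 0.05 over all genes. DESeq2 called 4 members lower, Ndufa4l2 (log2 -1.38), Cox5a (-0.55), Atp5k (-0.53) and Cox6a1 (-0.38), beside 1.64% of all genes with an adjusted p. Whether any member passed the threshold for the interaction therefore depended on the tool. The size of the median depended on m5 and m9, the fiber covariate and the splines.

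**Figure D3:**
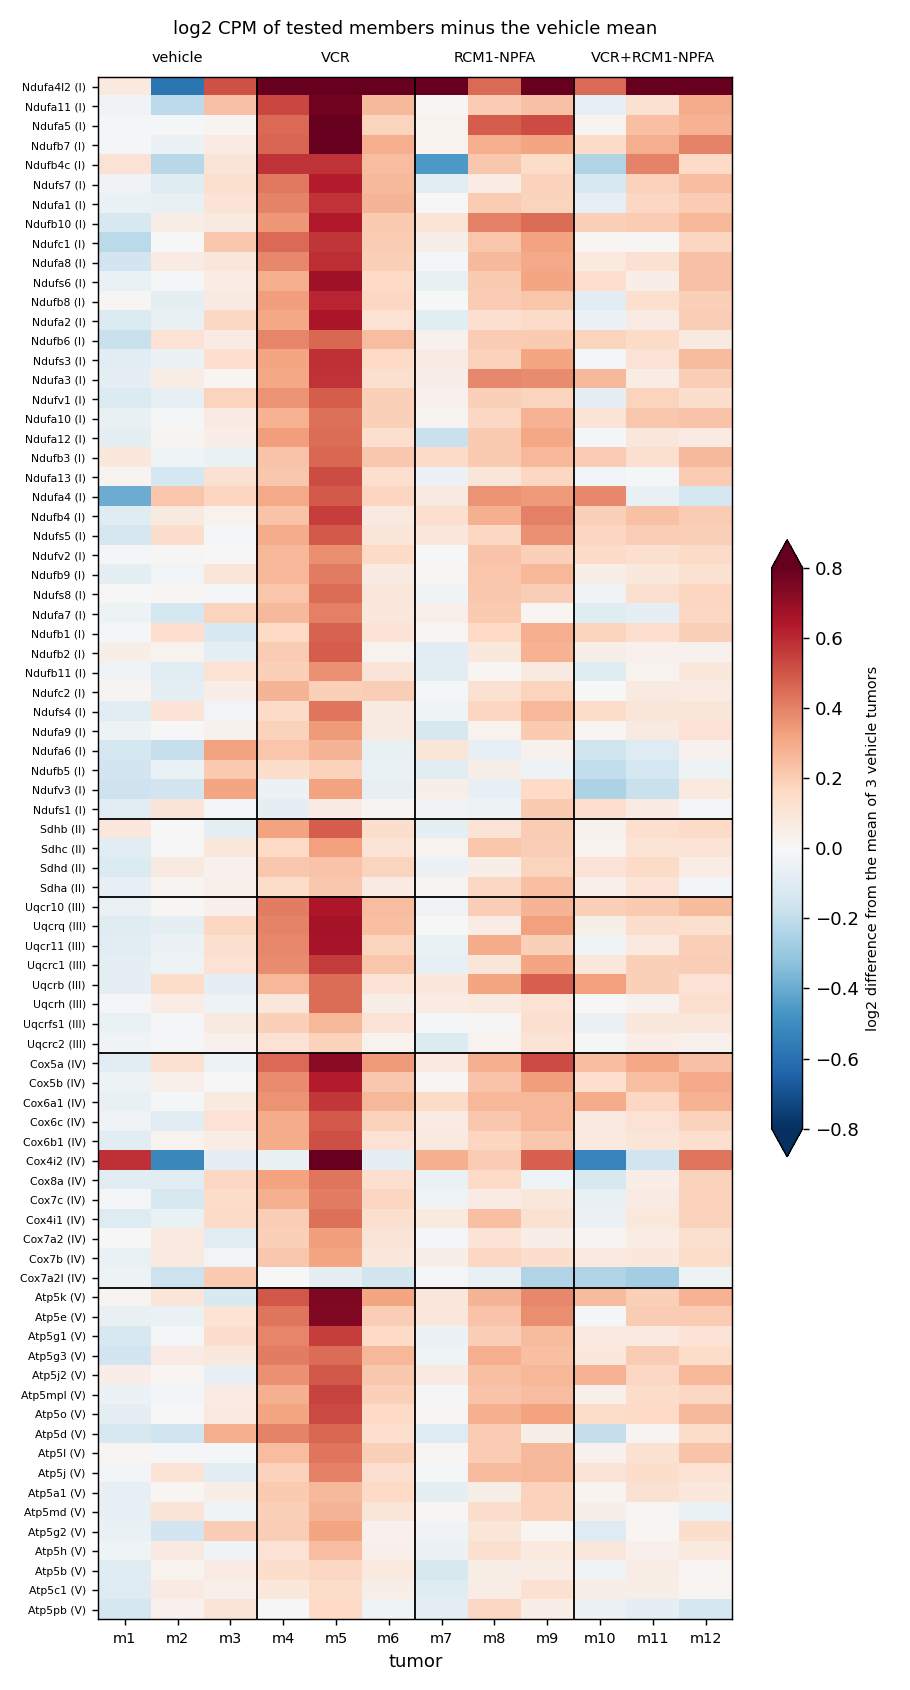
log2 CPM of 79 of the 80 tested members minus the mean of each in the 3 vehicle tumors, by tumor (columns) and complex (rows, ordered by the change after VCR). Colors beyond 0.8 are clipped. The column of m5 is the reddest, and 72 of the 80 members were highest in that tumor.

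One tumor held most of the maxima. In CPM, 72 of the 80 members were highest in m5, and all 25 called members were among those, whereas 15.3% of all tested genes had their maximum in m5. The median deviation of the members from the vehicle mean was 0.46 in m5, 0.28 in m4 and 0.14 in m6 on the log2 scale. Outside the VCR group it was highest in m9 with 0.22 and m8 with 0.20, and it was 0.00 in m7. The spread of the members within groups was small: their median biological coefficient of variation was 0.109, against 0.158 over all tested genes.

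The order of the tumors by members resembled their order by muscle fiber genes, though not in every place. The largest difference was in m10, with rank 8 by members and rank 5 by fiber RNA. Tumor m9, with the most fiber RNA (22410 CPM), ranked second by summed member TPM, and m5, second by fiber RNA, ranked first. Tumor m4 with 4854 and m6 with 2295 CPM of fiber RNA had 27260 and 27070 TPM of members. Tumor m11 had more fiber RNA than both, 5781 CPM, and less member RNA, 26512 TPM. Tumor m8 had 566 CPM of fiber RNA, near the 456 CPM of vehicle tumor m1, and 26047 TPM of members, above all vehicle tumors.

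**Figure D4:**
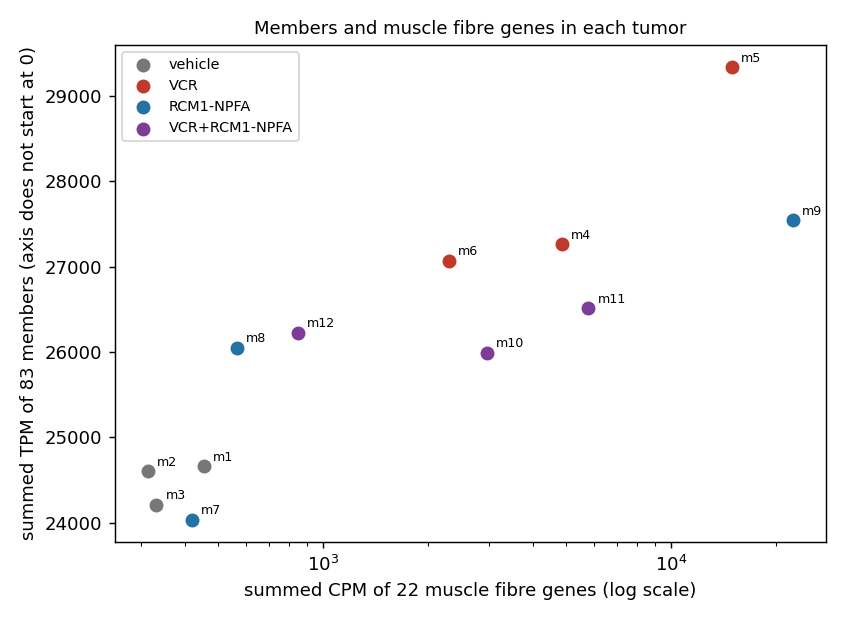
Summed TPM of the 83 members against summed CPM of 22 muscle fiber genes (log scale) in each tumor. The 3 vehicle tumors and m7 lie at the lower left, m5 and m9 at the upper right, and m8 and m12 are above the vehicle tumors with 566 and 846 CPM of fiber RNA.

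Markers of other cells moved with VCR as well, and some of them also with the other treatments. All 22 fiber genes had every VCR tumor above every vehicle tumor, and 9 were called higher. Among all tested genes, these shares were 13.5% and 2.79%. After the combination all 22 also had every tumor above every vehicle tumor, and after RCM1-NPFA 11 did. Beside these counts stand 7.1% and 5.56% of all tested genes, and 0 fiber genes were called in either comparison. Of the myogenic list, 3 of 9 tested genes were called higher after VCR, namely Myod1, Myog and Des. Myod1 had 2.38, 2.38 and 1.20 CPM in VCR tumors. Another 2 of the 9 had a log2 fold change below 0, the lowest -0.29. Also called higher were 3 of 8 endothelial genes (Egfl7, Tie1 and Esam) and 3 of 7 fibroblast genes (Pi16, Dcn and Col1a1). The endothelial genes summed to 152 to 211 CPM in vehicle and 226 to 308 CPM in VCR tumors, and the fibroblast genes to 2443 to 3004 and 3360 to 3572 CPM. Endothelial sums were also above all vehicle tumors after RCM1-NPFA (219 to 265 CPM) and the combination (220 to 236 CPM). Fibroblast sums were 3000 to 4121 CPM after RCM1-NPFA, which overlaps vehicle, and 3105 to 3539 CPM after the combination, which does not. Leukocyte genes (0 of 9 called, 1549 to 2164 against 1796 to 2092 CPM) and adipocyte genes (0 of 8 called, 6.99 to 159 against 45.5 to 121 CPM) overlapped. Erythroid genes (0 of 5 called) varied within groups, from 11.6 to 308 CPM in vehicle tumors. The part of these cells in the members' levels was not tested beyond the fit with the fiber covariate.

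The members are short genes. Their median effective length was 547 bases against 2644 over all tested genes, and 74 of the 80 were among the 4401 shortest genes, those of up to 1553 bases. Over these 4401 genes the median log2 fold change after VCR was 0.14, against -0.17 in the 4400 longest and 0.30 in the members. After RCM1-NPFA the shortest and longest genes were at 0.05 and -0.10, and after the combination at 0.06 and -0.07. Offsets for effective length left 16 members called after VCR, with 759 of all genes in either direction. With the splines of GC content and length, 0 of 78 members and 127 of all genes were called after VCR, and the members' median was 0.07 against -0.07 over all genes.

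The muscle isoforms that the rule left out had far larger fold changes than the members. Cox6a2, the muscle form of Cox6a1, had 0.739 to 0.833 CPM in vehicle tumors, 14.2, 46.8 and 7.08 after VCR, 1.26, 1.21 and 41.4 after RCM1-NPFA, and 7.19, 10.8 and 2.75 after the combination. All VCR and combination tumors and m9 were several times above the vehicle tumors, m10 and m11 were also above the VCR tumor m6, and Cox6a2 was called higher after VCR (log2 4.87, SE 1.36, adjusted p = 0.0935, edgeR). Cox8b, the muscle form of Cox8a, was called as well (log2 6.04, SE 1.70), and Cox7a1, the muscle form of Cox7a2, was not (log2 1.85, SE 0.75). In m9, Cox6a2 supplied 18.4% of the summed TPM of Cox6a2 and Cox6a1, and in m5 17.2%, against 0.455 to 0.561% in vehicle tumors. Ndufa4l2 supplied only 0.643 to 2.71% of the summed TPM of Ndufa4l2 and Ndufa4 in the 12 tumors, and Cox4i2 0.253 to 0.612% of that of Cox4i2 and Cox4i1. Cox4i2 itself had 5.19, 2.19 and 2.84 TPM in vehicle and 2.84, 5.73 and 3.04 TPM in VCR tumors, which overlap.

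Transcripts within a member also differed between tumors. Atp5c1, the gamma subunit of the rotor, is known to be spliced differently in muscle, where an exon near its end is skipped. Of its 2 main RefSeq transcripts, the one of 1180 bases was paired by GENCODE with a transcript that holds the short exon 9, at chr2:10056770-10056806 on the minus strand of GRCm38, of which 4 of 37 bases are coding. The shorter transcript, of 1051 bases, supplied 39.6, 43.2 and 39.4% of Atp5c1 TPM in vehicle tumors, 41.2, 44.1 and 42.1% after VCR, 40.5, 39.5 and 54.2% after RCM1-NPFA, and 44.3, 41.6 and 40.5% after the combination. Only m9, the tumor with the most fiber RNA, lay outside 39.4 to 44.3%. The exons of the shorter transcript were not checked here.

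**Figure D5:**
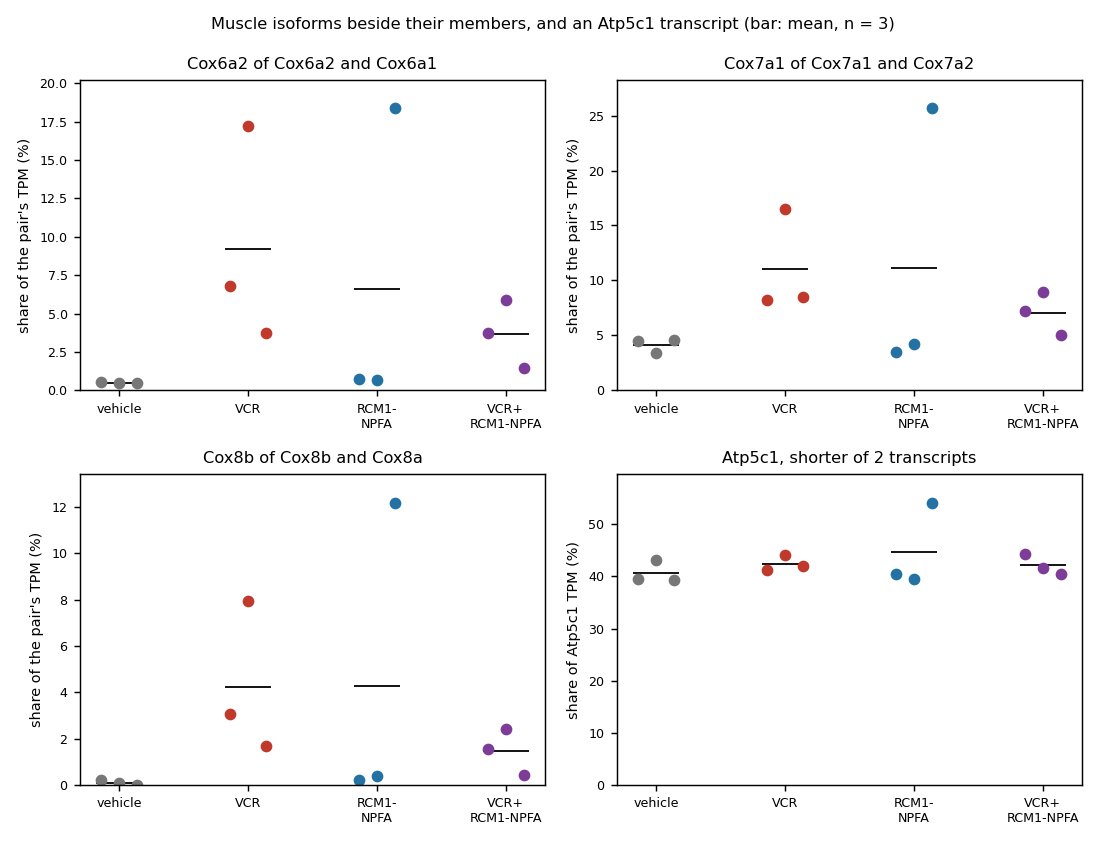
Share of the muscle isoforms Cox6a2, Cox7a1 and Cox8b in the TPM of each isoform pair, and of the shorter Atp5c1 transcript in Atp5c1 TPM, per tumor (linear axes from 0; bars are means of 3 tumors). Tumor m9 is highest in all 4 panels, and m5 is second in those of the muscle isoforms.

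In Ndufb5, an accessory subunit of complex I, the predicted shorter transcript of 707 bases supplied 20.9, 40.8 and 20.6% in vehicle tumors, 23.2 to 28.3% after VCR, 36.7, 35.5 and 42.6% after RCM1-NPFA, and 38.3, 34.3 and 35.0% after the combination. Each tumor given RCM1-NPFA was above each VCR tumor, but vehicle tumor m2 was among the high ones. In Ndufb11, the transcript of 820 bases supplied 24.8, 29.6 and 27.5% in vehicle and 39.4, 35.9 and 32.4% in VCR tumors, without overlap between these 2 groups, while RCM1-NPFA tumors ran from 20.7 to 39.7%. These shares are kallisto estimates for transcripts that share most of their reads, and were not tested.

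Genes around the respiratory chain were read from lists. Beside their counts after VCR stand 2.79% of all tested genes called higher and 2.75% called lower. At an unadjusted p under 0.05 in edgeR, 11.7% of all tested genes were higher and 10.4% lower. Of 50 assembly factors, 4 were called higher after VCR and 0 lower (Cmc2, Uqcc2, Ndufaf8 and Coa3, log2 0.28 to 0.46), with a median of 0.15. Of 78 mitochondrial ribosome genes, 8 were called higher and 0 lower, led by Mrps26 (log2 0.43, SE 0.11), with a median of 0.23. Of 18 genes of the TCA cycle and pyruvate dehydrogenase, only Mdh2 was called (log2 0.38, SE 0.10), with a median of 0.13. Of 18 tested electron carriers and adenine nucleotide transporters, 0 were called and 8 were higher at an unadjusted p under 0.05 in edgeR, with a median of 0.20. Of 18 regulators of mitochondrial biogenesis, among them Ppargc1a, Nrf1 and Tfam, 0 were called, 1 was higher and 1 lower at an unadjusted p under 0.05 in edgeR, and the median was -0.01. In each of these lists 0 genes were called by edgeR in the other 5 comparisons, as for all tested genes. The members' median of 0.30 was above that of each of these lists.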

How the data were processed

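RNA-seq was analysed for 12 tumors, 3 per group by title. The authors aligned poly-A reads with kallisto to transcripts of GRCm38 (version not given in the sources used here) and deposited estimated counts, TPM and effective lengths of every transcript. The labels name a stranded kit and non-stranded libraries, so the reads of a gene and of its antisense partner may be mixed, and kallisto divides reads shared by near-identical copies. Of 120299 transcripts, 10 could not be matched to RefSeq genes. Deposited estimated counts and TPM were summed per gene, and counts were rounded. Depth was 29342195 to 32108055 estimated counts.

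Genes were filtered by filterByExpr (minimum count 10), normalized by TMM and tested by the quasi-likelihood method of edgeR 4.0.16 (R 4.3.3) with all 4 groups fitted together, for 6 comparisons (adjusted p under 0.1). The study's methods used DESeq2, which was run as an alternative (DESeq2 1.42.0), as was limma-voom (limma 3.58.1). Other alternatives were DESeq2's size factors, no filter, a filter at a mean count of 50, separate fits per comparison, effective-length offsets, a threshold of 0.05, the fiber genes as a covariate, leaving out tumors, and splines of GC content and length (5 degrees of freedom, added after seeing the data). P-values measure the spread between tumors. CPM in the text are TMM-normalized, and log2 CPM used a pseudocount of 0.1.

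The members, gene lists and tests were chosen with earlier results of these data known. Named members were fixed core subunits and isoforms, up to 10 called members per comparison and direction by size, the 3 highest and 3 lowest against vehicle, and the 5 highest and lowest by TPM. From other lists, up to 4 called genes were named. Other members named, and the 3 described for transcript shares among 18 with 2 transcripts of at least 5% of TPM, were chosen after their values were seen. The values of 1 member are not reported here.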

Additional observations from a re-analysis of the deposited data

How the results depend on the processing

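After VCR, the 25 members called higher (975 of all genes in either direction) became 13 (648) with no filter on low counts. The fit of only VCR and vehicle tumors gave 1 (465), and effective-length offsets gave 16 (759). The DESeq2 Wald test gave 41 (2197) and limma-voom 13 (680). At an adjusted p under 0.05 there were 0 (9), and with the fiber genes as a covariate 0 (1). Without m5 and m9 there were 0 (253), and with splines of GC content and length 0 (127). Leaving out single tumors gave 0 to 45 calls. Counts with DESeq2 size factors or a mean of 50 counts stayed within 1.5 times. For the interaction, the 0 calls became 4 with DESeq2, and the other comparisons had 0 calls in every alternative. The median of the members ran from 0.07 to 0.35 after VCR, 0.03 to 0.21 after RCM1-NPFA, -0.01 to 0.14 after both, -0.27 to -0.07 for both against VCR, -0.09 to 0.01 for both against RCM1-NPFA and -0.40 to -0.08 for the interaction. Values near 0 changed sign: Ndufs1 after VCR was -0.01 with DESeq2 size factors, DESeq2 or the splines, -0.02 with no filter, a mean of 50 counts or only 2 groups, -0.15 with the fiber covariate, -0.03 without m5 and m9, and from -0.04 to 0.04 without single tumors. Atp5pb was -0.01 with the covariate, -0.03 without m5 and m9, -0.13 with the splines and -0.03 to 0.09 without single tumors. Cox7a2l was 0.07 with the covariate and -0.18 to 0.03 without single tumors. After RCM1-NPFA, Ndufb5 was 0.02 with length offsets and -0.11 to 0.08 without single tumors, and Atp5b -0.06 to 0.04. Ndufv3 after the combination was -0.23 to 0.05. The causes were not tested. No paired analysis was possible because tumor numbers do not repeat between groups. With 3 tumors per group, the smallest log2 fold change called among the members was 0.27.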
